A study of Mus musculus with 10 samples.

Results

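Sertoli cells are the somatic nurse cells of the seminiferous tubule, and 9 genes that mark their identity or their response to hormones were followed here: Sox9, Gata4, Wt1, Fshr, Amh, Inha, Inhbb, Rhox5 and Clu. They were chosen by symbol and are 9 of the 23420 genes in the deposited count tables. All 9 were among the 15265 genes with enough counts to be tested. PolyA RNA was sequenced from cells of the testes of mice of mixed background at postnatal day 18, with 5 Ino80WT and 5 Ino80cKO libraries. The Ino80cKO mice carried a testis-specific deletion of Ino80, which encodes the ATPase of a chromatin remodelling complex, made with the Stra8-Cre driver. Stra8-Cre is known for deleting floxed sequences in male germ cells, not in Sertoli cells. The sources used here do not say which alleles the Ino80WT mice carried, whether they had the Cre transgene, or how many animals went into a library. The p-values therefore reflect only how far libraries of a group varied, part of which may be technical.

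The labels call the material spermatogenic cells, obtained by enzymatic digestion of tubules and filtration, with no sort described. Sertoli transcripts were nevertheless present in every library: the lowest count of any of the 9 genes in any library was 263 (Rhox5) and the highest 68345 (Clu), out of 16750609 to 23700094 gene counts per library. A floor of 3 counts is 0.127 to 0.179 CPM, counting error only, so depth did not limit detection of any of the 9. Levels are given as CPM, read counts scaled to library size with TMM factors, as mean ± SD with n = 5 libraries per group. Fold changes are Ino80cKO over Ino80WT with SE on the log2 scale, and adjusted p-values are from the quasi-likelihood test of edgeR, adjusted by Benjamini-Hochberg over all 15265 genes. Ino80 itself stood at 95 ± 12.6 CPM in Ino80WT against 96.1 ± 1.37 CPM in Ino80cKO (adjusted p = 0.889). The deleted exons are not named in the labels, so this gene-level count does not check them.

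SOX9, GATA4 and WT1 are the transcription factors that set and keep Sertoli cell fate. FSHR is the receptor for pituitary follicle-stimulating hormone and signals through cAMP. AMH and inhibin B, a dimer of the subunits encoded by Inha and Inhbb, are secreted hormones of the TGF-beta superfamily, and inhibin B feeds back on the pituitary. Rhox5 is a homeobox gene on the X chromosome that responds to androgen in Sertoli cells, and Clu encodes clusterin, a secreted chaperone abundant in Sertoli cells. Inha and Gata4 are also transcribed in Leydig cells.

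The factors of Sertoli identity and the FSH receptor were higher in Ino80cKO, as were Inhbb and Clu, while Inha, Amh and Rhox5 did not pass the test. In all, 6 of the 9 genes were higher and none lower, against a background of 18.3% of all tested genes higher and 27.6% lower. The median log2 fold change of the 9 was 0.39, beside 0.02 over all tested genes. In 3 of the 9 (Sox9, Gata4 and Fshr) every Ino80cKO library lay above every Ino80WT library, as it did for 9.96% of all tested genes. All 6 rises were below 2-fold, and leaving out 1 library gave 3 (without Ino80WT 5 or without Ino80cKO 2) to 7 (without Ino80cKO 5) genes called. In those fits 2231, 2135 and 3010 of all tested genes were higher, beside 2793 in the main fit. With library totals in place of TMM scaling the median of all genes moved to 0.19, the share of tested genes called higher rose to 35.9%, and the higher share of all changed genes moved from 39.8% to 65.1%. In that fit 6 of the 9 were called. In bulk RNA, a change in the number of Sertoli cells relative to other cells and a change in RNA per Sertoli cell cannot be told apart.

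**Figure D1:**
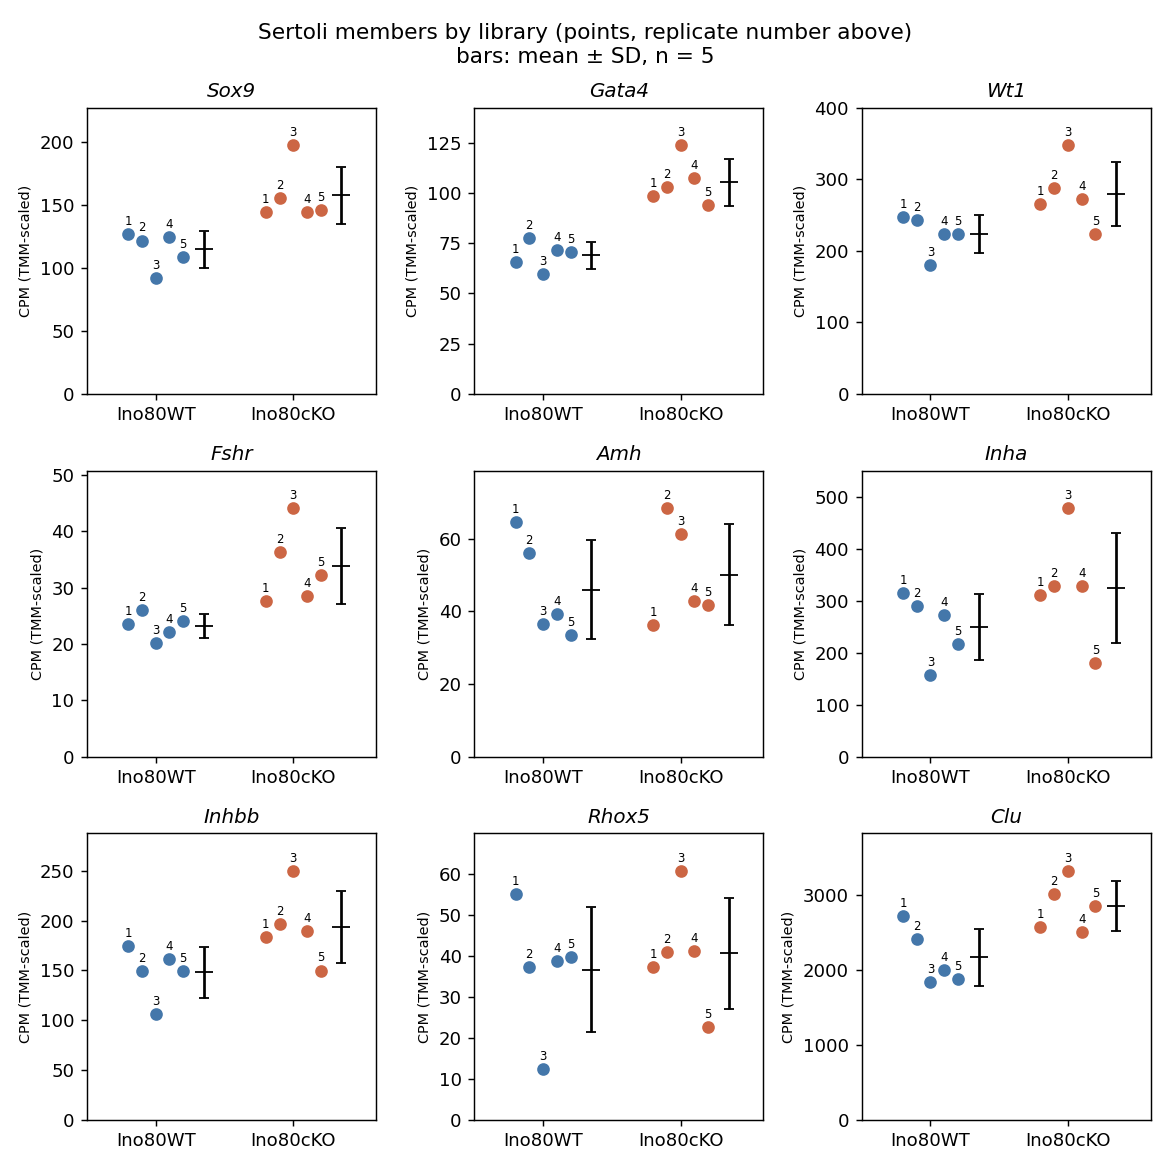
Level of each of the 9 genes in CPM (vertical axes, starting at 0) in the 5 Ino80WT (blue) and 5 Ino80cKO (orange) libraries; points are libraries with the replicate number above, and black bars are mean ± SD. The groups are separate for Sox9, Gata4 and Fshr, and Ino80WT 3 is the lowest library for 8 of the 9 genes.

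Promoter windows from RefSeq (GRCm38.p6, the same build as mm10) were found for 4 of the 9 genes. The windows of Fshr and Inhbb start from the same base as the GENCODE transcript, so these are shown, as the proximal promoters of a hormone receptor and a hormone subunit that were both higher in Ino80cKO. Each window runs from 250 bases before to 50 bases after the start, 5′ to 3′ on the gene's strand. Capitals mark matches to 6 kinds of short motif searched on both strands: GATA factor cores (AGATAA or AGATAG, and likewise TGATAA or TGATAG), the nuclear receptor half-site AGGTCA, the cAMP response half-site CGTCA, the E-box CACGTG, the steroid receptor half-site TGTTCT and the SOX core ACAATG.
Fshr (chr17:89200626-89200925, minus strand): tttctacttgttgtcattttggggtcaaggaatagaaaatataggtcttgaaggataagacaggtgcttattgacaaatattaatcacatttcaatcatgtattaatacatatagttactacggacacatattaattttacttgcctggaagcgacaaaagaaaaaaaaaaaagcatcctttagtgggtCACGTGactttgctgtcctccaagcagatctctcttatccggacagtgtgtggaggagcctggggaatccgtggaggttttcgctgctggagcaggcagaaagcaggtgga
Inhbb (chr1:119422199-119422498, minus strand): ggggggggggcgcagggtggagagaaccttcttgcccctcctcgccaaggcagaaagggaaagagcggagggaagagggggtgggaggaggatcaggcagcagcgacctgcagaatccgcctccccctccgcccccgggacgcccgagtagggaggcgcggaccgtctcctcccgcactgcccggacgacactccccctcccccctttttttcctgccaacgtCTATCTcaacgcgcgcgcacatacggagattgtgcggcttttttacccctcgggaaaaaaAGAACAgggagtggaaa

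The Fshr window held 1 match, an E-box (CACGTG) whose first base lies 61 bases before the start; 7.15% of 32851 windows of the same length held one. The Inhbb window held a GATA core on the opposite strand, printed here as CTATCT and beginning 27 bases before the start. It also held a steroid receptor half-site on the opposite strand, printed as AGAACA and beginning 33 bases after the start. These are common letters: 29.8% of windows held a GATA core and 19% a steroid receptor half-site. The matches did not overlap each other. The other motifs were not in these windows, and across all windows AGGTCA was found in 16.3%, CGTCA in 20.8% and ACAATG in 12.6%. The windows also differ in base composition, with 40.7% G or C for Fshr and 64.3% for Inhbb. A match is a description of letters and not of binding.

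Gata4 (chromosome 14, positions 63198922 to 63271692, minus strand) had the largest rise of the 9; positions here and below are whole-gene spans in mm10 from GENCODE vM21. It was at 65.5, 77.7, 59.5, 71.4 and 70.7 CPM in Ino80WT 1 to 5 and at 98.2, 102.9, 123.9, 107.3 and 93.9 CPM in Ino80cKO 1 to 5. The lowest Ino80cKO library was above the highest Ino80WT library. The means were 69.0 ± 6.81 and 105.3 ± 11.6 CPM, a 1.53-fold rise (log2 0.61 ± 0.09, adjusted p = 0.00028), and an exact two-sided permutation test (252 assignments) returned p = 0.00794, the smallest it can give. The zinc-finger protein it encodes acts in Sertoli cells from the earliest gonad onward.

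Sox9 (chromosome 11, positions 112782224 to 112787760) is the gene through which the testis-determining signal of SRY acts. Its level was 127, 122, 91.8, 124 and 109 CPM in Ino80WT 1 to 5 and 145, 156, 198, 144 and 146 CPM in Ino80cKO 1 to 5. The groups did not overlap, and Ino80cKO 3 stood above the other 4 Ino80cKO libraries, at 144 to 156 CPM. Sox9 rose 1.37-fold (log2 0.46 ± 0.11, adjusted p = 0.00541; exact permutation p = 0.00794).

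Wt1 (chromosome 2, positions 105126529 to 105173616) encodes a zinc-finger factor that maintains Sertoli identity. It was at 247, 243, 180, 223 and 224 CPM in Ino80WT 1 to 5 and at 266, 287, 348, 273 and 224 CPM in Ino80cKO 1 to 5. The groups overlapped through Ino80cKO 5, and the other 4 Ino80cKO libraries were above all Ino80WT libraries. Wt1 rose 1.25-fold (log2 0.32 ± 0.12, adjusted p = 0.0376; exact permutation p = 0.0317). This call was lost on leaving out any one of 7 libraries (Ino80WT 3, 4 or 5, Ino80cKO 1, 2, 3 or 4), with adjusted p = 0.0527 to 0.076.

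Fshr (chromosome 17, positions 88984952 to 89200675, minus strand), with the E-box in the window shown above, was the lowest of the 9 per unit length. Its level was 23.5, 26.1, 20.2, 22.0 and 24.1 CPM in Ino80WT 1 to 5 and 27.6, 36.4, 44.2, 28.4 and 32.3 CPM in Ino80cKO 1 to 5. All 5 Ino80cKO libraries were above all 5 Ino80WT libraries, though their spread was wider (coefficient of variation 20% against 9.49%). Fshr rose 1.46-fold (log2 0.54 ± 0.13, adjusted p = 0.00461; exact permutation p = 0.00794). The calls of Gata4, Sox9 and Fshr held in each of the 16 alternative settings.

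The 2 inhibin B subunits differed in spread. Inhbb (chromosome 1, positions 119415465 to 119422248, minus strand), the beta subunit, was at 175, 149, 106, 161 and 150 CPM in Ino80WT 1 to 5 and at 183, 196, 250, 190 and 150 CPM in Ino80cKO 1 to 5. Ino80cKO 5 lay among the Ino80WT libraries and the other 4 above them. Inhbb rose 1.31-fold (log2 0.39 ± 0.14, adjusted p = 0.0438; exact permutation p = 0.0317). The call was lost on leaving out any one of 7 libraries (Ino80WT 2, 3 or 5, Ino80cKO 1, 2, 3 or 4), with adjusted p = 0.061 to 0.0878.

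Inha (chromosome 1, positions 75507077 to 75510366), the alpha subunit, was at 316, 290.5, 157, 273 and 217 CPM in Ino80WT 1 to 5 and at 311, 328, 479, 329 and 180 CPM in Ino80cKO 1 to 5. Both groups were wide, with Ino80WT 3 and Ino80cKO 5 low and Ino80cKO 3 high. The log2 fold change was 0.38 ± 0.23, of a size like that of Inhbb but with a larger error, and it did not pass (adjusted p = 0.203). The fold had a 95% interval of 0.912 to 1.85. Without Ino80cKO 5 Inha passed, with a log2 fold change of 0.53 (adjusted p = 0.0388). Without Ino80cKO 3 its log2 fold change was 0.22 (adjusted p = 0.449). Without both Ino80WT 3 and Ino80cKO 3, chosen after seeing the data, it was 0.09 (adjusted p = 0.731).

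Amh (chromosome 10, positions 80805243 to 80807648), which causes regression of the Müllerian duct in the fetus and declines as Sertoli cells mature, was at 64.6, 56.1, 36.5, 39.3 and 33.5 CPM in Ino80WT 1 to 5. In Ino80cKO 1 to 5 it was at 36.2, 68.6, 61.5, 42.9 and 41.9 CPM. Ino80WT 1 and 2 and Ino80cKO 2 and 3 were high and the other libraries low, and the groups overlapped almost wholly. The log2 fold change was 0.13 ± 0.22 (adjusted p = 0.65). The fold had a 95% interval of 0.788 to 1.51, so a change of the size seen for Gata4 lay just outside the interval and one of the size seen for Sox9 inside it. Without Ino80cKO 2 the log2 fold change of Amh was -0.01, and without Ino80WT 1 it was 0.30. Without both Ino80WT 1 and Ino80WT 2 it was 0.51 (edgeR adjusted p = 0.0621).

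Rhox5 (chromosome X, positions 37804842 to 37808876) was at 55.1, 37.3, 12.4, 38.7 and 39.7 CPM in Ino80WT 1 to 5 and at 37.4, 40.9, 60.8, 41.3 and 22.7 CPM in Ino80cKO 1 to 5. It varied most within the groups of all 9 genes, with a coefficient of variation of 41.9% in Ino80WT and 33.5% in Ino80cKO, and 1 library of each group, Ino80WT 3 and Ino80cKO 5, was low. The log2 fold change was 0.15 ± 0.33 (adjusted p = 0.723), and the interval of the fold ran from 0.679 to 1.81. Of 548 X-linked genes matched by current symbol, 272 (49.6%) were higher in Ino80cKO and none lower (median log2 fold change 0.34). Rhox5 was not among the 272, and whether it differed from them was not tested. The log2 fold change of Rhox5 was -0.07 without Ino80WT 3 and -0.02 without Ino80cKO 3. It was 0.37 without Ino80WT 1, 0.30 without Ino80cKO 5 and 0.49 without both Ino80WT 1 and Ino80WT 2. Rhox5 passed the test in none of these fits.

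Clu (chromosome 14, positions 65968483 to 65981547) was the most abundant of the 9, at the 99.97th percentile of average log2 CPM among tested genes. It was at 2709, 2410, 1831, 1991 and 1869 CPM in Ino80WT 1 to 5 and at 2569, 3013, 3316, 2502 and 2841 CPM in Ino80cKO 1 to 5. Only Ino80WT 1 reached into the range of Ino80cKO. Clu rose 1.32-fold (log2 0.40 ± 0.13, adjusted p = 0.0218; exact permutation p = 0.0317), and the call was lost without Ino80WT 5 (adjusted p = 0.0584) or without Ino80cKO 2 (adjusted p = 0.0519).

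Per kilobase of annotated exon the order of levels in Ino80WT was Clu (629 ± 111 CPM per kilobase), Inha (170 ± 43.1), Rhox5 (48.6 ± 20.4), Wt1 (36.1 ± 4.26), Inhbb (34.9 ± 6.04), Sox9 (27.8 ± 3.55), Amh (27.6 ± 8.13), Gata4 (17.7 ± 1.75) and Fshr (9.83 ± 0.93). The ranges over libraries were separate between Clu and Inha, Inha and Rhox5, Amh and Gata4, and Gata4 and Fshr. The neighbours from Rhox5 down to Amh overlapped in range. In Ino80cKO the order was the same but for Inhbb (45.6 ± 8.5) and Wt1 (45.1 ± 7.26), which changed places within their spread, and Amh (30.1 ± 8.38) and Gata4 (27.0 ± 2.96) then overlapped.

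**Figure D2:**
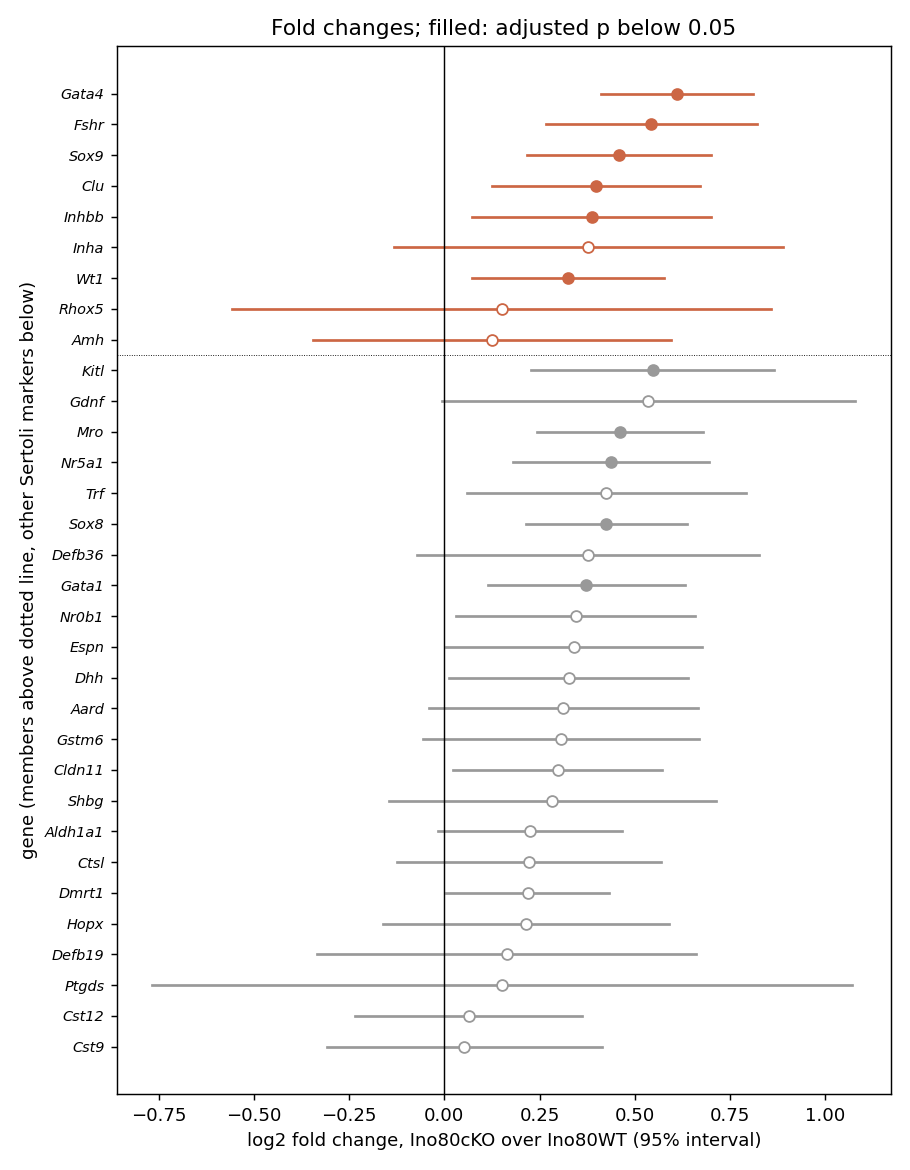
Log2 fold change of Ino80cKO over Ino80WT with its 95% interval for the 9 genes (orange) and 23 of the 24 other Sertoli markers (grey); filled points have an adjusted p below 0.05. All 32 point values lie above 0, and 6 of the 9 and 5 of the 23 pass the test.

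The other Sertoli markers were mostly shifted the same way but seldom passed. Of 25 listed, 24 were tested, and 5 (20.8%) were higher and none lower, near the background of 18.3% higher. Their median log2 fold change was 0.32. All 24 point values were positive. Mro, a Sertoli-enriched gene of the testis, rose 1.38-fold from 126 ± 15.7 to 173 ± 19.5 CPM (adjusted p = 0.00289), and Sox8, a close relative of Sox9, rose 1.34-fold. Kitl, which encodes the ligand of the KIT receptor on spermatogonia, rose 1.46-fold from 144 ± 29.8 to 210 ± 34.7 CPM, and the nuclear receptor gene Nr5a1, also active in Leydig cells, rose 1.35-fold. The count of 5 rose to 12 with DESeq2, where 3600 of all tested genes were higher. With library totals it rose to 16, where 35.9% of all tested genes were higher. It was 10 without Ino80WT 1, 12 without Ino80cKO 5 and 13 without both Ino80WT 1 and 2, and fell to 4 without Ino80WT 5. Those 4 fits gave 3284, 3010, 3453 and 2231 of all tested genes higher, beside 2793 in the main fit.

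The level of each of the 9 genes was also set against these 24 markers, as log2 CPM minus their mean log2 CPM in the same library. Gata4 was the only one of the 9 whose groups stayed apart on this scale, at -0.34 ± 0.16 in Ino80WT (-0.57 to -0.13) and -0.05 ± 0.08 in Ino80cKO (-0.12 to 0.08), a difference of 0.29. The gap was narrow, from -0.130 in Ino80WT 3 to -0.125 in Ino80cKO 2. The share of all tested genes apart on this scale was not computed. In plain CPM, 9.96% of all tested genes had every Ino80cKO library above every Ino80WT library. Fshr and Sox9 differed by 0.2 and 0.14, and their groups overlapped. Wt1 kept the same distance from the markers in both groups, 1.35 ± 0.08 in Ino80WT and 1.35 ± 0.04 in Ino80cKO, and Inhbb, Inha and Clu differed by 0.07, 0.03 and 0.09. Amh and Rhox5 were lower in Ino80cKO on this scale by 0.19 and 0.09, within the spread of the libraries. These relative levels are a description without a test.

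**Figure D3:**
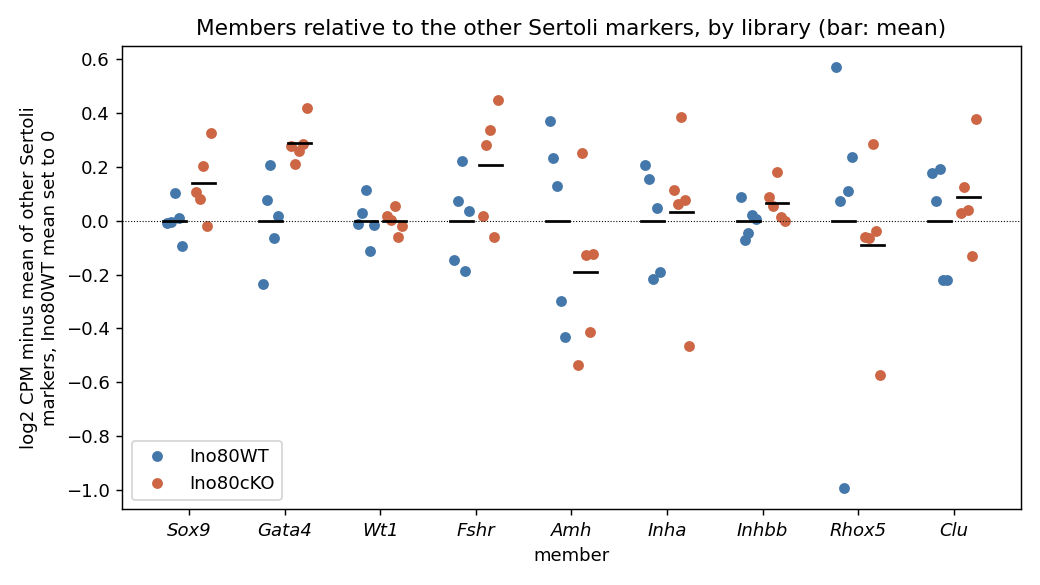
Log2 CPM of each gene minus the mean log2 CPM of the 24 other Sertoli markers in the same library, with the Ino80WT mean of each gene set to 0; points are libraries and bars group means. The groups are narrowly apart for Gata4, nearly equal for Wt1, and widest for Rhox5, where Ino80WT 3 is lowest.

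The 9 genes moved together from library to library within each group. After subtracting group means, the Pearson correlation of log2 CPM over 10 libraries was positive for all 36 pairs, from 0.39 (Gata4 and Clu) to 0.96 (Wt1 and Inha), with a median of 0.72. These points share libraries and scaling factors, so they are a description. Ino80WT 3 was the lowest of all 10 libraries in 8 of the 9 genes, and Ino80cKO 3 the highest of all in 8. Amh was the exception at the low end, with Ino80WT 5 lowest, and at the high end, with Ino80cKO 2 highest. The non-member genes whose group-centred levels were most like the mean profile of the 9 were Zfp362 (r = 0.99), Pea15a (0.98), Laptm4b (0.98), Coro2b (0.97) and Mageb16 (0.97), over the same 10 libraries. The 9 themselves had r = 0.77 (Amh) to 0.97 (Wt1) with that profile, of which each is a part. The 5 named genes were picked for the highest r, so their r cannot be set against those of the 9. The share of all tested genes with r in the range of the 9 was not computed.

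Markers of pachytene spermatocytes, and some of those of Leydig cells and macrophages, differed between the groups as well. All 10 pachytene spermatocyte markers were lower in Ino80cKO, beside 27.6% of all tested genes, at a median log2 fold change of -1.49. Their summed level was 2176 to 3941 CPM in Ino80WT and 729 to 1304 CPM in Ino80cKO. Their mean log2 CPM was highest in Ino80WT 3 (7.72) and lowest in Ino80cKO 3 (5.30), the libraries with the lowest and the highest mean of the 9 Sertoli genes (6.44 and 7.66). Without both of these libraries, an alternative chosen after seeing the data, 3 of the 9 genes (Gata4, Sox9 and Fshr) were called, and Wt1, Inhbb and Clu had adjusted p = 0.114, 0.114 and 0.0719. In that fit 1914 of all tested genes were higher, instead of 2793.

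Among other somatic markers, 4 of 6 tested Leydig genes were higher, with a summed level of 28.1 to 74.9 CPM in Ino80WT and 52.7 to 116 CPM in Ino80cKO, and the Leydig hormone gene Insl3 had too few counts to test. Of 7 macrophage genes 4 were higher (50.7 to 72.5 CPM and 67.5 to 97.1 CPM), of 6 peritubular myoid genes 1 was higher (646 to 818 CPM and 721 to 1060 CPM), and of 5 endothelial genes none was called (41.8 to 65.5 CPM and 46.3 to 80.4 CPM). None of these 24 genes was lower. The share higher was 66.7% for Leydig, 57.1% for macrophage and 16.7% for peritubular myoid genes, beside 18.3% of all tested genes. Median log2 fold changes were 0.74 (Leydig), 0.79 (macrophage), 0.21 (peritubular myoid) and 0.24 (endothelial). The medians of the 9 Sertoli genes and of all tested genes were 0.39 and 0.02. Both tested red blood cell genes were without a call (3.26 to 13.0 CPM and 3.92 to 10.02 CPM), and the globin genes Hba-a1 and Hba-a2 were at 0. Reads that aligned to several places, 18.4% to 26.3% per library, were assigned to no gene, so a count of 0 does not show absence of the RNA. Of 8 spermatogonial genes 2 were higher and 2 lower (573 to 748 CPM and 543 to 673 CPM), with a median log2 fold change of 0.11. Over all tested genes 18.3% were higher and 27.6% lower. The summed level of the 9 Sertoli genes was 2495 to 3782 CPM in Ino80WT and 3658 to 4883 CPM in Ino80cKO, and their share of unscaled gene counts was 0.223% to 0.359% and 0.386% to 0.516%. The part of the cell mixture in the rises of the Sertoli genes was not tested.

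**Figure D4:**
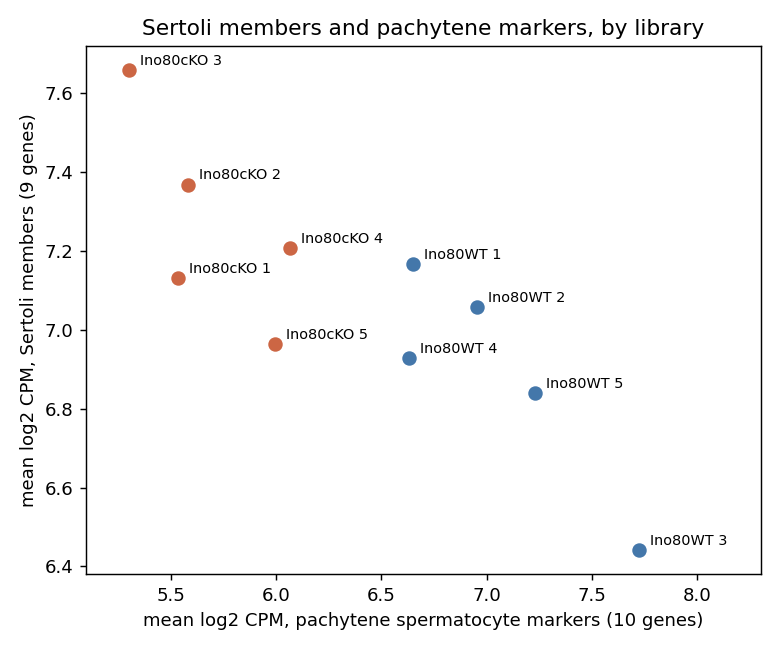
Mean log2 CPM of the 9 Sertoli genes (vertical axis) against that of 10 pachytene spermatocyte markers (horizontal axis) in each library, Ino80WT in blue and Ino80cKO in orange. Ino80WT 3 has the highest pachytene mean (7.72) and the lowest Sertoli mean (6.44), and Ino80cKO 3 the reverse (5.30 and 7.66).

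Downstream of the FSH receptor, 4 of 14 genes of cAMP signalling were higher and none lower (28.6%, beside 18.3% of all tested genes higher and 27.6% lower). Their median log2 fold change was 0.29. Prkar2a, a regulatory subunit of protein kinase A, rose 1.51-fold from 39.9 ± 4.38 to 60.3 ± 6.21 CPM (adjusted p = 0.0004), and Prkacb, a catalytic subunit, rose 1.29-fold. Gnas, which encodes the stimulatory G protein alpha subunit, rose 1.26-fold and the adenylyl cyclase gene Adcy3 1.26-fold. These genes are transcribed in many cell types. Scaling by library totals raised the count to 10 of the 14, where 35.9% of all tested genes were higher, and leaving out Ino80WT 5 lowered it to 2.

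Genes of activin, inhibin and AMH signalling changed in both directions. Of 19 listed, 16 were tested, of which 8 were higher and 2 lower (50% higher, beside 18.3% of all tested genes; median 0.30). Smad3, a transducer of activin signals, rose 1.48-fold from 32.4 ± 3.98 to 48.0 ± 4.18 CPM (adjusted p = 0.000578), and the shared Smad4 and the inhibitory Smad7 rose 1.26-fold and 1.44-fold. Tgfbr3, the co-receptor through which inhibin opposes activin, rose 1.5-fold from 18.7 ± 2.61 to 28.0 ± 3.04 CPM (adjusted p = 0.00125). The 2 lower genes, named after their values were seen, were Smad1, a transducer of AMH and BMP signals (1.3-fold lower), and the activin receptor gene Acvr1b (1.25-fold lower). Neither was called with library totals, and 1 was without Ino80WT 3, without Ino80cKO 1 or without Ino80cKO 3; leaving out Ino80WT 1 gave 3. Inhba, the subunit of activin A, was at 0.68 ± 0.31 and 0.99 ± 0.11 CPM (adjusted p = 0.117), far below Inhbb.

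In the androgen list none of 8 genes was called in either direction, and all 8 point values were positive (median 0.26). Of all tested genes 18.3% were higher and 27.6% lower, with a median of 0.02. Fhod3, an actin-nucleating formin, was at 7.09 ± 1.35 and 9.01 ± 3.84 CPM (adjusted p = 0.325). No gene of this list had an unadjusted p below 0.05, and DESeq2 called 1 of the 8, higher, as did edgeR without Ino80WT 2. Those fits gave 3600 and 2504 of all tested genes higher. This list had its lowest mean in Ino80WT 3 and its highest in Ino80cKO 3. The same held for the 9 Sertoli genes, the other Sertoli markers and the FSH, activin and peritubular myoid lists. The pattern was therefore not particular to the androgen list.

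Of 33 other genes of the Rhox cluster, 30 were found and 8 tested, of which 2 were higher and none lower (median 0.23). This share of 25% stood near the 18.3% of all tested genes and below the 49.6% of X-linked genes, a difference that was not tested. These were Rhox2d (0.70 ± 0.11 to 1.11 ± 0.19 CPM) and Rhox3a (0.43 ± 0.08 to 0.77 ± 0.27 CPM), both of which have close copies and are uncertain where reads align to several places. Leaving out 1 library gave 0 (without Ino80WT 2 or without Ino80cKO 3), 1 (without Ino80cKO 4) or up to 5 (without Ino80WT 1) called. Rhox8, the other Sertoli-expressed member of the cluster, was at 99.1 ± 29.6 and 121 ± 23.6 CPM (adjusted p = 0.216).

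Among partners of Sox9, Gata4 and Wt1 in gonadal sex determination, 5 of 12 tested genes were higher and none lower (41.7%, beside 18.3% of all tested genes; median 0.36). Gata6, the relative of Gata4, rose 1.28-fold from 31.6 ± 2.58 to 40.4 ± 2.44 CPM (adjusted p = 0.00298), and the polycomb gene Cbx2, needed for testis determination and also transcribed in germ cells, rose 1.3-fold. Fgfr2, the receptor for FGF9 in the fetal gonad, rose 1.3-fold, and Rspo1, which promotes ovarian fate, rose from 0.90 ± 0.26 to 1.63 ± 0.56 CPM (adjusted p = 0.0275). Leaving out 1 library gave 2 (without Ino80WT 5) to 6 called, with 3 without Ino80cKO 1 or Ino80cKO 5, and 1 gene was called lower without Ino80cKO 5.

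**Figure D5:**
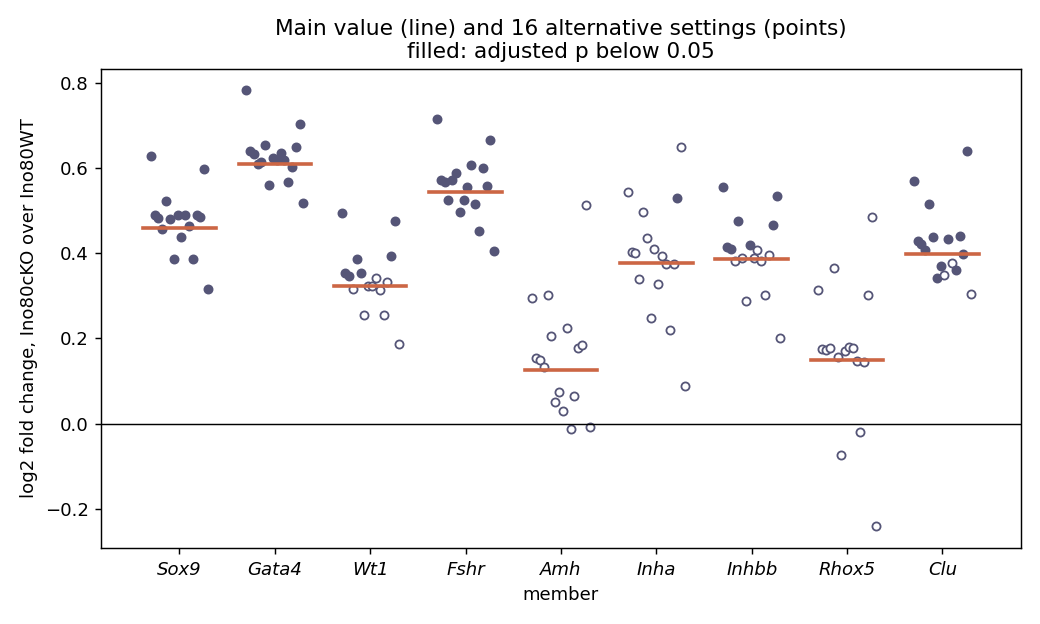
Log2 fold change of each of the 9 genes, with the main value as an orange line and 16 alternative settings as points, filled where the adjusted p is below 0.05. All points of Sox9, Gata4 and Fshr are filled and above 0, and Wt1 and Inhbb each keep 7 of 16.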

How the data were processed

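PolyA RNA from 5 Ino80WT and 5 Ino80cKO libraries was deposited by the authors as raw read counts for each gene, in a separate table for every library. TopHat2, HTSeq, DESeq2 and mm10 are listed in the submitters' processing notes, without versions or roles. Annotation and strand setting are not stated there; no GENCODE vM21 gene overlaps any of the 9 Sertoli genes. The 5 rows that name no gene held 35.5% to 44% of reads and entered neither library sizes nor tests.

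Counts were analysed with edgeR 4.0.16 in R 4.3.3: filterByExpr on genotype (minimum count 10, minimum total 15), TMM factors, and a robust quasi-likelihood fit with genotype as its only term, called at an adjusted p below 0.05. The SE is the log2 fold change divided by the square root of F. Log2 CPM used a prior count of 2. The fit was tested on simulated counts. No libraries of the same group were duplicates (lowest chi-square per degree of freedom 8.93), and pairs across groups were not compared. The exact permutation test can give no p below 0.00794. Exon lengths and positions come from GENCODE vM21 (GRCm38). Alternatives were library totals, DESeq2 1.42.0, no count filter, a replicate block, leaving out each library, and leaving out 2 pairs of libraries.

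The members, lists and tests were chosen with earlier results of these data known. Named genes were the 9 members, up to 4 of each signalling or marker list with the smallest adjusted p (2 with the smallest p where none passed), and the 5 genes most like the members' mean profile among named symbols with an average log2 CPM of at least 1. Inhba, Rhox8, Insl3 and the globin genes fall outside this rule and were named after their values were seen, as were the genes so marked in the text. The values of 1 listed gene are not reported here and are left out of the fold-change plot.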

Additional observations from a re-analysis of the deposited data

Results flagged for a closer look

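The Sox9 level of Ino80cKO 3, 198 CPM, stood apart from the other Ino80cKO libraries at 144 to 156 CPM, with a gap of 0.786 of the group's range against a critical value of 0.71 for 5 samples. Of the 18 gene and group combinations tested in this way this was the only one to pass, and chance passes about 5% of them. Without Ino80cKO 3 the log2 fold change of Sox9 was 0.39 and it was still called.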

How the results depend on the processing

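Sox9, Gata4 and Fshr were called higher in all 16 alternative settings, Clu in 13, Wt1 and Inhbb in 7 each, Inha in 1, and Amh and Rhox5 in none. Leaving out each library in turn gave 3 to 7 of the 9 genes called (3 without Ino80WT 5 or without Ino80cKO 2), and log2 fold changes of 0.25 to 0.39 for Wt1, 0.29 to 0.48 for Inhbb, 0.34 to 0.52 for Clu and 0.22 to 0.53 for Inha. The corresponding differences in CPM were 42.7 to 69.7, 34.0 to 56.3, 605 to 867 and 40.4 to 110.5. Without both Ino80WT 3 and Ino80cKO 3, chosen after seeing the data, 3 of the 9 were called, with log2 fold changes of 0.19 for Wt1, 0.20 for Inhbb and 0.30 for Clu and differences of 32.3, 23.8 and 528 CPM. Without both Ino80WT 1 and Ino80WT 2 the differences of Wt1 and Inhbb were 80.8 and 61.9 CPM. Replicate numbers did not pair the libraries: same-numbered deviations correlated at -0.47 to 0.20 over 5 pairs, and 2 of 10 libraries correlated best with their own number. With the replicate block 4 of the 9 were called, and Wt1 (log2 0.32, adjusted p = 0.0932) and Inhbb (log2 0.38, adjusted p = 0.101) were not. Over all tested genes, the block gave 1921 higher and the fit without Ino80WT 3 and Ino80cKO 3 gave 1914. Leaving out 1 library gave 2135 to 3284 higher, beside 2793 in the main fit. The block gave 2 rather than 4 called genes in the FSH list, 2 rather than 5 in the sex determination list, and 1 lower gene in the activin list.

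Library totals in place of TMM gave 5484 higher genes instead of 2793. Over the 6 lists of related genes they gave 48 higher instead of 24 and 0 lower instead of 2, where the replicate block and the fit without Ino80WT 3 and Ino80cKO 3 each gave 1 lower, and leaving out 1 library gave 1 to 3. DESeq2 called 12 of the other Sertoli markers and 1 Rhox gene, with 3600 of all tested genes higher. Without a count filter 4 Rhox genes were called, and without both Ino80WT 3 and Ino80cKO 3 none. Library totals called 8 genes of the sex determination list and 1 of the androgen list, and the fit without Ino80WT 1 and 2 also called 1 of the latter. The cause of these differences was not tested.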

Other observations

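Genes for secreted Sertoli proteins other than Kitl were chosen here by role after their values were seen. Gdnf, which sustains spermatogonial stem cells, was at 6 ± 1.56 CPM in Ino80WT and 8.75 ± 3.39 CPM in Ino80cKO (edgeR adjusted p = 0.0962). Dhh, which signals to Leydig and peritubular cells, was at 67.9 ± 13.1 and 85.1 ± 11.9 CPM (adjusted p = 0.0811). The carrier protein genes Shbg, for androgen, and Trf, for iron, were at 87.8 ± 23.4 and 107 ± 24.5 CPM and at 15.9 ± 1.25 and 21.4 ± 6 CPM (adjusted p = 0.253 and 0.0557). On the log2 scale the smallest differences among the 24 other Sertoli markers were those of the cystatin genes Cst9 (286 ± 66.6 and 296 ± 52.2 CPM) and Cst12 (249 ± 44.4 and 260.2 ± 39.5 CPM).

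Prkar1a, a regulatory subunit gene of protein kinase A, also singled out after its values were seen, had groups that did not overlap (396 to 404 CPM in Ino80WT and 377 to 388 CPM in Ino80cKO), yet did not pass the test (log2 -0.06 ± 0.06, adjusted p = 0.422). The share of all tested genes with every Ino80cKO library below every Ino80WT library was not computed.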
